A study of Homo sapiens with 3 samples.

Results

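The histone genes of NCI-H23, an established line of human lung adenocarcinoma cells, were examined after siRNA knockdown of USP16, which encodes a deubiquitinase that takes ubiquitin off histone H2A. Of 50868 genes in the deposited count tables, 86 were taken by their symbol. They were 75 clustered genes, whose symbols begin with HIST1H, HIST2H, HIST3H or HIST4H and do not carry a pseudogene ending, and 11 variant genes. The clustered genes comprised 6 for the linker histone H1, 17 for H2A, 23 for H2B, 14 for H3 and 15 for H4, and 55 of them lay in the HIST1 cluster on chromosome 6. GENCODE release 29, on the same GRCh38 build as the counts, annotates 4 of them as pseudogenes (HIST2H2BA, HIST2H2BB, HIST2H2BD and HIST3H2BA) and lacks the identifier of HIST2H2BC. All 5 were kept, as the symbols place them among the clustered genes.

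mRNA sequencing covered 2 libraries of cells transfected with USP16 siRNA, numbered 1 and 2 here, and 1 library of cells transfected with control siRNA. All 3 libraries came from the same line, and the labels give no further allele, agent or time. The labels do not say whether the knockdown libraries came from separate cultures or separate siRNAs, so a p-value here reflects the spread of these particular samples alone, and that spread may be technical. The libraries held 13956382 and 15071179 counts with USP16 siRNA and 14007161 counts with control siRNA. USP16 itself had 109 and 245 counts in knockdown libraries 1 and 2, against 632 in the control, which placed its scaled level 83.8% and 66.8% below the control. The first knockdown library thus had the lower USP16 level. Of 20 marker genes, the epithelial keratins KRT8 and KRT18 had between 1118 and 3364 counts in every library, and the blood markers PTPRC, CD3E and LYZ had at most 1 count in any.

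DNA in the nucleus is wound around nucleosomes made of the core histones H2A, H2B, H3 and H4, and histone H1 binds the linker between them. The clustered genes are transcribed mainly in S phase to package new DNA, and their usual mRNAs end just after a conserved stem-loop and carry no poly(A) tail. The variant genes are mostly transcribed throughout the cell cycle into polyadenylated mRNAs, and their proteins mark particular places such as promoters, centromeres or DNA breaks. The library kit was one for mRNA, and a kit that enriches for poly(A) tails would take up mainly the clustered-gene transcripts that do have a tail. How the kit selected RNA is not given in the sources used here.

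The stem-loop is shown first, because it is the feature that sets the usual ending of the clustered mRNAs. It was searched on the sense strand of GENCODE transcripts as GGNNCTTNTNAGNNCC, with the first 6 bases required to pair with the last 6 around a loop of 4. It was present in 32 of the 74 clustered genes with a transcript (43.2%), in 1 of 11 variant genes and in 50 of 58676 annotated genes (0.0852%). Many of the other clustered genes are annotated only as far as the coding sequence, so no match says only that these letters are not in the annotated transcript. The lines below give genes described in the following paragraphs, with the paired bases of the stem in capitals.
HIST1H2BD: caaaGGCTCTtttaAGAGCCacgc
HIST2H2BE: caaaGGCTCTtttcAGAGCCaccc
HIST1H2AC: caaaGGCTCTtttcAGAGCCcccc
HIST3H2A: taaaGGCTCTtttcAGAGCCacct
HIST1H3E: caaaGGCTCTtctcAGAGCCaacc
HIST2H4A: caaaGGCCCTttttAGGGCCgacc
H2AFX: caaaGGCCCTtttaAGGGCCacca
The HIST1H2BD stem-loop lies at chr6:26158587-26158602 on the plus strand of GRCh38, and 39 bases of the annotated transcript follow it. That of HIST2H2BE lies at chr1:149886188-149886203 on the minus strand, and its transcript runs on for 1729 bases. The transcripts of HIST1H2AC, HIST3H2A, HIST1H3E and HIST2H4A run on for up to 1128, 390, 1862 and 1167 bases past the stem-loop. H2AFX, at chr11:119094898-119094913 on the minus strand, is the 1 variant gene with the motif, and up to 1044 bases follow it.

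Promoter sequences from RefSeq (GRCh38.p14), running from 250 bases before to 50 after the start, were matched for 70 of the 86 genes. They are shown for a clustered gene with a more than 2-fold difference in both knockdown libraries (HIST1H2BD), for the clustered gene with the most counts (HIST1H2BK) and for the variant gene with the largest positive difference (H2AFJ). Capitals mark the TATA box TATAAA, the CCAAT box CCAAT and the octamer ATTTGCAT on either strand, and matches that overlap run together.
HIST1H2BD: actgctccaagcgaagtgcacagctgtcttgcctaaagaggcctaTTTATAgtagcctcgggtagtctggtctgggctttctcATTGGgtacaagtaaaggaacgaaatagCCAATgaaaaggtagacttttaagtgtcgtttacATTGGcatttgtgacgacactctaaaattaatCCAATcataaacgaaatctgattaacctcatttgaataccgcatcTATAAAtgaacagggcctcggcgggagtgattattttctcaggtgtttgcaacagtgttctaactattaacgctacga
HIST1H2BK: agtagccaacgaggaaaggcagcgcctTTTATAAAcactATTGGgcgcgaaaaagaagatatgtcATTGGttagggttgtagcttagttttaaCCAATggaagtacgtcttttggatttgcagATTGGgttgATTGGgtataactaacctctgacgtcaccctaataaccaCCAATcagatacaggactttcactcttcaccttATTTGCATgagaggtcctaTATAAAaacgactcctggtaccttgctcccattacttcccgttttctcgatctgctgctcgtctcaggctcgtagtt
H2AFJ: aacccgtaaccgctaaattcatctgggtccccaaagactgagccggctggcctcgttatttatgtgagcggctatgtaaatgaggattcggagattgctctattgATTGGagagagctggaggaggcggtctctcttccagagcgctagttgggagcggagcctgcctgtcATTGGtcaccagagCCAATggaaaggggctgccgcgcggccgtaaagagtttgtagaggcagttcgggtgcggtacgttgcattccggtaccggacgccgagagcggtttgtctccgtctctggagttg
These windows lie at chr6:26157871-26158170 on the plus strand, chr6:27146809-27147108 on the minus strand and chr12:14774155-14774454 on the plus strand. TATAAA was present in 40 of 60 clustered promoters, in 4 of 10 variant promoters and in 11.5% of all 35116 RefSeq promoters. CCAAT was present in 50 of 60 clustered promoters, 7 of 10 variant promoters and 34.6% of all promoters, and among the clustered types it was scarce in H4 alone, with 3 of 13. The octamer was present in 11 of 16 H2A, 9 of 13 H2B, 1 of 12 H3 and 0 of the 6 H1 and 13 H4 promoters, in 1 of 10 variant promoters and in 1.77% of all promoters. Head-to-head H2A and H2B genes overlap in these windows, so their matches are not separate. The 1 H3 promoter with the octamer, that of HIST1H3D, has the same window as the H2A gene HIST1H2AD (chr6:26199244-26199543), so 1 stretch was counted under both types. The HIST1H2BD window held TATAAA and CCAAT, the HIST1H2BK window held all 3 motifs, and the H2AFJ window held CCAAT.

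Most clustered genes were at the edge of detection. Of the 75, 10 had no count in any library, 22 had none in the control, 47 had counts in every library and 33 had enough counts to enter the test across genes. A mean of at least 20 counts was reached by 18 and a mean of at least 100 by 5. All 11 variant genes were tested, and each had a mean above 100. Another annotated gene overlaps 18 of the clustered and 7 of the variant genes, and with the use of strand in counting not given in the sources used here, reads from such genes cannot be told apart. Scaled by annotated transcript length, as scaled counts (CPM) per kilobase averaged over the 3 libraries, the variant genes had a median level of 23.4 and the 74 clustered genes with a length a median of 0.448. H2AFZ was highest on this scale, with 95.5 and 74.2 in knockdown libraries 1 and 2 against 93.0 in the control. H1F0 followed, with 82.7 and 50.8 against 95.8. The ranges of H2AFZ and H1F0 overlapped, so their order on this scale was not resolved. HIST1H2BK was the one clustered gene near them, with 89.8 and 52.3 against 37.8, although its annotation holds only 381 bases of coding sequence, which inflates a level per length. H1FX spanned 48.4 and 13.7 against 66.1, H2AFX 49.8 and 25.1 against 63.0, and H3F3B 37.1 and 40.6 against 56.3. The next clustered gene was HIST1H1C with 22.9 and 14.3 against 12.6. HIST1H2BK was above HIST1H1C on this scale in every library.

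The summed level of all 75 clustered genes in both knockdown libraries exceeded that of the control, and that of the 11 variant genes was lower. The clustered genes held 2059 and 2085 counts in knockdown libraries 1 and 2, against 1130 in the control, or 145.3 and 134.1 CPM against 84.9 CPM after scaling. The ratio to the control was 1.71 in the first library (exact 95% interval 1.59 to 1.84) and 1.58 in the second (1.47 to 1.70). The variant genes held 16694 and 16057 counts against 19725, which gave ratios of 0.795 (0.779 to 0.812) and 0.697 (0.682 to 0.712). These intervals cover counting error only, and with a single control library they leave out the variation between control cultures. A different share of cells making histone mRNA and a different amount of it per cell cannot be told apart in bulk RNA. The clustered genes made up 0.0148% and 0.0138% of all counts with USP16 siRNA and 0.00807% with control siRNA.

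**Figure D1:**
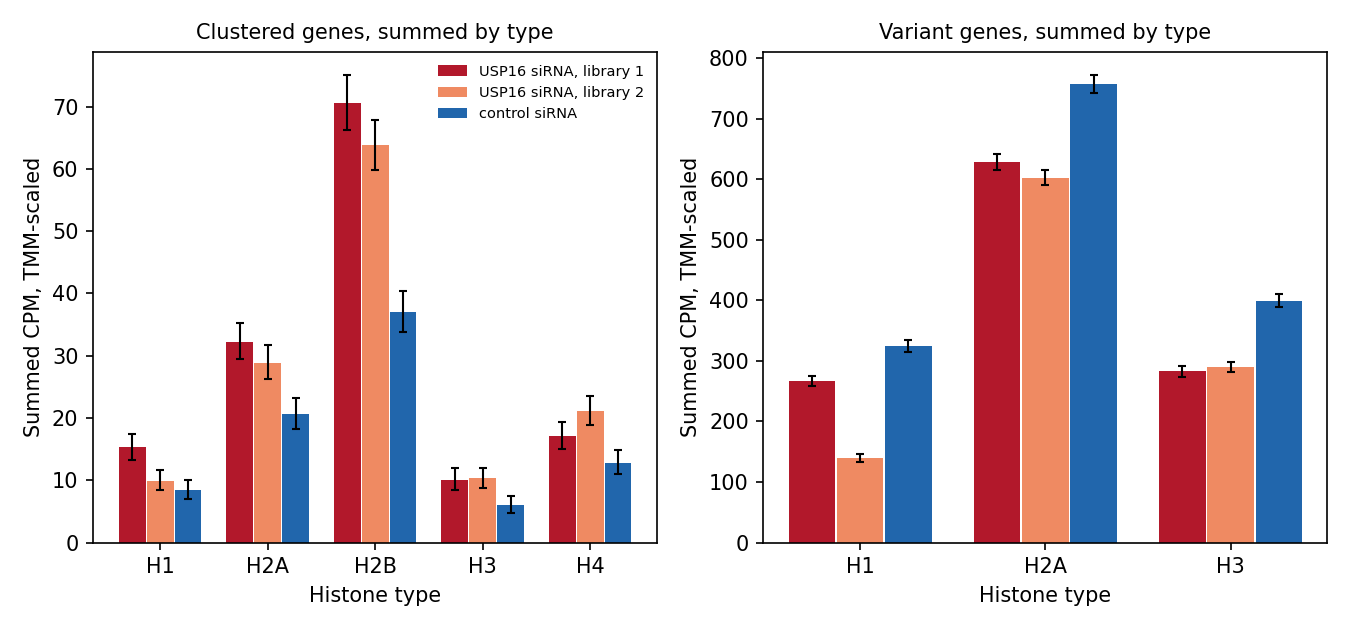
Summed CPM of the clustered and variant genes by histone type, with 1 bar for each library (USP16 siRNA 1, USP16 siRNA 2, then control siRNA) and exact 95% Poisson intervals as error bars. Each clustered type stands above the control in both knockdown libraries (H1 in the second library within counting error), and each variant type is lower.

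All 5 clustered types were higher than the control in both knockdown libraries. H2B had 1000 and 993 counts against 492, with ratios of 1.91 (1.71 to 2.13) and 1.73 (1.55 to 1.93). Without HIST1H2BK, which gave 485 of the 1000 counts, the H2B ratios were 1.61 and 1.95. H3 had 143 and 160 counts against 81 (ratios 1.66 and 1.69), and H2A had 457 and 449 against 274 (1.57 and 1.40). H4 had 242 and 329 counts against 171 (1.33 and 1.65). H1 had 217 and 154 counts against 112, and its ratio of 1.18 in the second library had an interval of 0.917 to 1.52 that takes in no difference. The intervals of H2B overlapped those of H1 in the first library, 1.44 to 2.31, and those of H3 and H4 in the second, 1.29 to 2.24 and 1.36 to 1.99, so the types were not ranked. By ratio, H1 and H2A were further from the control in the first knockdown library and H4 in the second. The intervals of these ratios were 1.35 to 1.83 and 1.2 to 1.64 for H2A, and 1.09 to 1.63 and 1.36 to 1.99 for H4. Both ratios of a type share the control, so the knockdown libraries were compared by CPM. H1 had 15.3 CPM (13.3 to 17.5) in the first and 9.9 CPM (8.4 to 11.6) in the second, apart by counting error alone. The CPM intervals overlapped for H2A (29.4 to 35.3 and 26.3 to 31.7) and H4 (15 to 19.4 and 18.9 to 23.6). The order of the libraries was therefore not resolved for H2A and H4.

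By gene cluster, HIST1 on chromosome 6 held 1401 and 1195 counts in knockdown libraries 1 and 2 against 674 in the control, with ratios of 1.95 and 1.52. HIST2 on chromosome 1 held 514 and 745 against 381 (1.27 and 1.67). HIST3, also on chromosome 1, held 128 and 137 against 70 (1.72 and 1.68), and HIST4 on chromosome 12 held 16 and 8 counts against 5. HIST1 and HIST2 thus ran in opposite order between the knockdown libraries. A single gene weighed heavily in each. HIST1H2BK held 485 and 310 of the HIST1 counts against 192, and HIST2H2BE held 120 and 267 of the HIST2 counts against 85. The 57 clustered genes under a mean of 20 counts, summed, had 314 and 364 counts against 201 (1.47 and 1.55), so the difference was not limited to the abundant genes. Where the annotated transcript runs more than 200 bases past the stem-loop (21 genes), the sums were 872 and 1098 against 521, with ratios of 1.57 and 1.80. Where it runs on for no more than 200 bases (11 genes), they were 223 and 271 against 137 (1.53 and 1.69). In the 43 genes without an annotated stem-loop, HIST1H2BK among them, the sums were 964 and 716 against 472, with ratios of 1.92 and 1.3. Sums were higher with USP16 siRNA in each of these groups. In the group of 11, HIST1H2BD (74 and 90 counts against 23) and HIST1H2BC (29 and 19 against 12) also have an annotated transcript without the stem-loop. The sums of that group are therefore not those of short-tailed transcripts alone.

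No histone gene passed the test across all genes. By edgeR's quasi-likelihood test with Benjamini-Hochberg adjustment at 0.05, 0 of the 44 tested members passed, where 0.0174% of the 17287 tested genes did. At an unadjusted p under 0.05 there were 2, HIST1H2BD and H2AFJ (background 4.88%), and DESeq2 called 0 members. USP16 did not pass either (adjusted p = 0.561), and the fit had 1 residual degree of freedom, so a miss says little. Counted by direction without any filter, 39 of the 65 clustered genes with any count (60%) were higher than the control in both knockdown libraries and 9 (13.8%) were lower in both. Over all 27554 genes with any count these shares were 29.0% and 33.3%. Among the 18 clustered genes that averaged 20 counts or more, 16 were higher in both (background 31.7%) and 0 were lower in both (35.1%). HIST1H2BC, HIST1H2AG, HIST1H2BN and HIST1H3G had fewer than 20 counts in the control and reached that mean only through the knockdown libraries, so this count is a description alone. The exceptions were HIST1H4H and HIST2H2BC, at log2 fold changes of -0.02 and 0.88 and of 0.08 and -0.10. The knockdown libraries share their control library, so their 2 values for a gene are not independent.

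**Figure D2:**
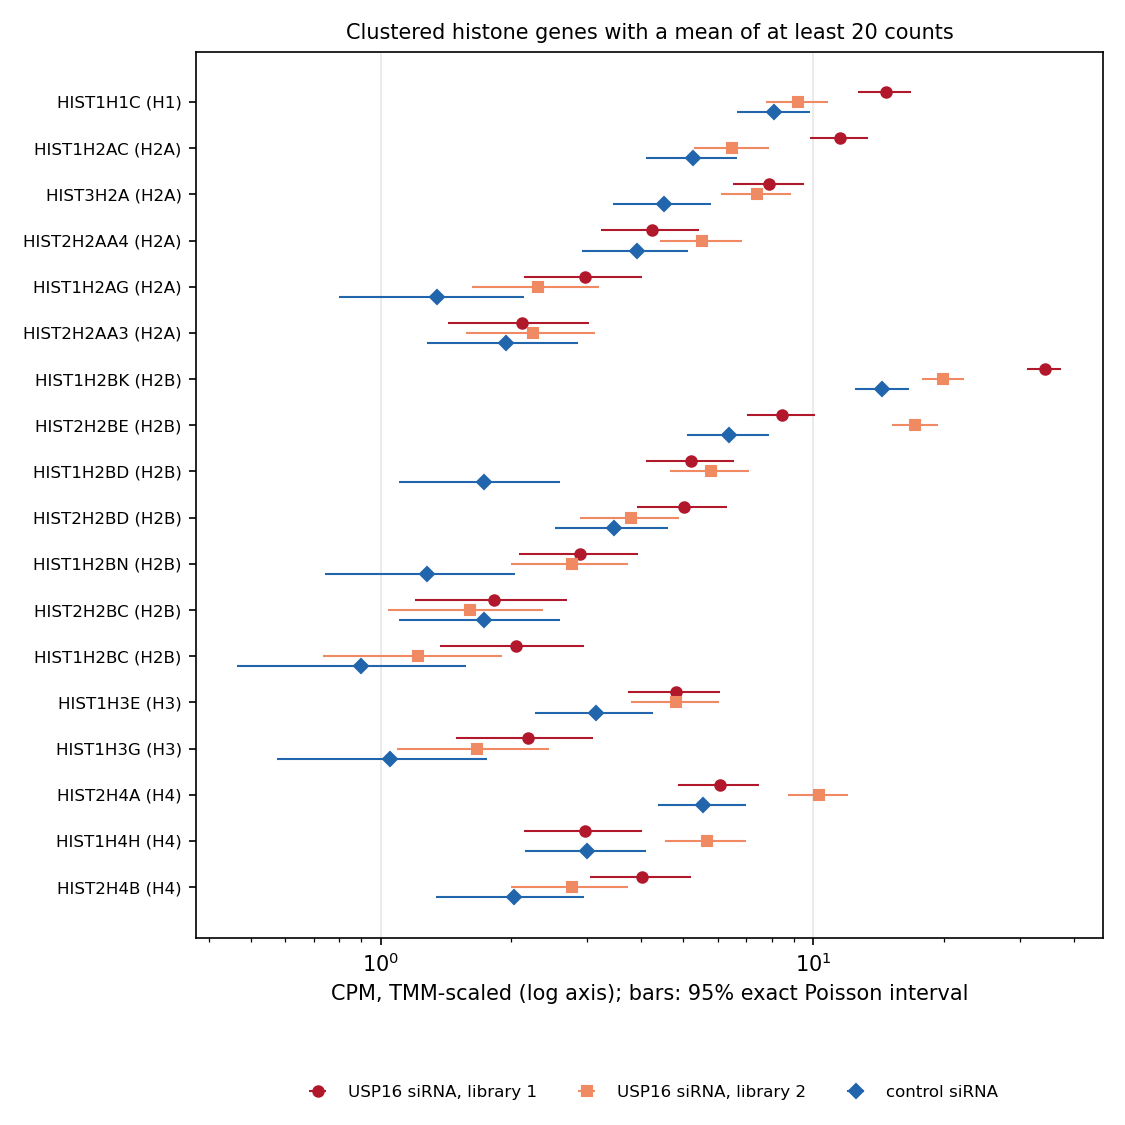
CPM (log axis) of the 18 clustered genes that averaged 20 counts or more, one row per gene and one point per library, with exact 95% Poisson intervals. In 16 of 18 genes both USP16 siRNA points lie above the control siRNA point, and 4 of the 18 reached that average only through the USP16 siRNA libraries.

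The H2B genes carried the largest number of counts. HIST1H2BK had 485 and 310 counts in knockdown libraries 1 and 2 against 192 in the control (log2 fold changes 1.24 and 0.46). It shares 74.1% of its stretches of 50 bases with other annotated genes, mainly H2BFS, a near-identical H2B gene on chromosome 21 that had 24 and 19 counts against 3. The pair summed gave 509 and 329 against 195, so the split of reads between them hardly moved the values. HIST2H2BE, which has a long tail after its stem-loop, had 120 and 267 counts against 85, and was further from the control in the second library (0.40 and 1.41). HIST1H2BD was the clustered gene with the highest mean log2 fold change, and its CPM was 5.22 and 5.79 against 1.73 (unadjusted p = 0.0289, adjusted p = 0.999 by edgeR's quasi-likelihood test with Benjamini-Hochberg adjustment). HIST2H2BD, one of the annotated pseudogenes, had 71 and 59 counts against 46 (0.52 and 0.13).

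Genes at least 2-fold higher in both knockdown libraries were 3 of the 33 tested clustered genes, HIST1H2BD, HIST1H2BN and HIST1H3B, where 3.75% of all tested genes were. The count was 8 with no filter on low counts, 0 with a minimum mean of 100 counts and 1 with a prior count of 10. With 1 knockdown library left out, the rule asks for a 2-fold difference in the other alone, so the count cannot fall. It was 7 without knockdown library 1 and 9 without knockdown library 2. A gene with few counts could enter the test only through its higher group, so this count supports no statement about the 75. HIST1H2BN, named for this count after its values were seen, had 41 and 43 counts against 17 (1.10 and 1.04), and it overlaps HIST1H2AL on the same strand and HIST1H2AK on the other. At least 2-fold lower in both were 0 tested members, against 1.68% of all genes.

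Among the H2A genes, HIST1H2AC had 163 and 101 counts in knockdown libraries 1 and 2 against 70 in the control (1.11 and 0.30). HIST3H2A had 112 and 115 counts against 60, which was an even difference in both libraries (0.79 and 0.70). HIST1H2AG had 42 and 36 counts against 18 (1.06 and 0.72). HIST2H2AA4 and HIST2H2AA3 are near-identical copies whose reads cannot be assigned with certainty, and their sum was 90 and 121 against 78, with ratios of 1.08 and 1.33. The summed ratios of the clustered H2A genes, 1.57 and 1.40, were lower than those of H2B, 1.91 and 1.73, but the intervals overlapped in both libraries. Without HIST1H2BK the H2B ratio in the first library was 1.61. A difference between the 2 types was not tested.

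Of the H3 genes, HIST1H3E had the most counts, with 68 and 75 in knockdown libraries 1 and 2 against 42 (0.58 and 0.59). HIST1H3G had 31 and 26 against 14 (0.97 and 0.60). HIST1H3H had 16 and 29 against 8 (0.78 and 1.44). All 3 were above the control in both libraries. HIST1H3B was next, with 10 and 8 counts against 2, too few to place its size. Among the H4 genes, HIST2H4A and HIST2H4B share 97.5% and 97.2% of their 50-base stretches with each other or with other genes, and their sum was 143 and 203 against 101 (ratios 1.33 and 1.72). HIST1H4H had 42 and 88 counts against 40, so that only the second library lay above the control. HIST4H4, the single HIST4 gene, had 16 and 8 against 5 (1.3 and 0.34). The linker histone genes rested on HIST1H1C alone, with 208 and 143 counts against 108 (0.84 and 0.18). HIST1H1E and HIST1H1D had at most 5 counts with USP16 siRNA and none in the control, and HIST1H1B had 2 and 2 against 4. No fold is given for these genes at the level of single reads.

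H2A and H2B genes often sit head to head and share the promoter between them, and 13 head-to-head pairs of clustered genes had starts within 500 bases. In the pair HIST1H2BC and HIST1H2AC, 218 bases apart, HIST1H2BC was at 1.07 and 0.39 and HIST1H2AC at 1.11 and 0.30 in knockdown libraries 1 and 2. In HIST1H2BG and HIST1H2AE, 282 bases apart, HIST1H2BG was at -0.36 and 0.52 and HIST1H2AE at -0.32 and 0.80. In HIST3H2A and HIST3H2BB, 233 bases apart, both genes were higher in both libraries, with HIST3H2BB at 0.51 and 0.80. Among the 33 tested clustered genes, 25 (75.8%) were higher in both libraries, against 33.4% of all tested genes. Genes with few counts could enter the test only through their higher group, so the 75.8% may be too high. Without a filter, 39 of the 65 clustered genes with any count (60%) were higher in both. By either share, clustered genes that are not partners would often share a side as well. As a description only, of the 8 pairs with counts of both genes in every library, 6 had both genes on the same side of the control in each library. The pair HIST2H2BE and HIST2H2AC, 322 bases apart, did not, since HIST2H2AC was at -0.56 and 0.24. Nor did HIST1H2AD and HIST1H2BF, with HIST1H2AD at -0.20 and -0.31 and HIST1H2BF at 0.06 and -1.87. HIST1H2BJ and HIST1H2AG differed in which library was further from the control (0.37 and 1.34 against 1.06 and 0.72). Most of the partners had at most 30 counts in each library, where counting error alone spans such gaps.

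The variant genes had far more counts, and 7 of the 11 were lower than the control in both knockdown libraries (6 when scaled by total counts alone), against 33.5% of all tested genes. These were H1F0, H1FX, H2AFV, H2AFX, H2AFY, H3F3A and H3F3B. H2AFJ was the 1 variant gene higher in both (background 33.4%), and H2AFZ, H2AFY2 and CENPA had 1 library on each side. The median of the mean log2 fold change was -0.43 over the 11 variant genes, 0.66 over the 33 tested clustered genes and -0.02 over all tested genes, a description only, since the filter on low counts favours clustered genes that were high in 1 group.

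**Figure D3:**
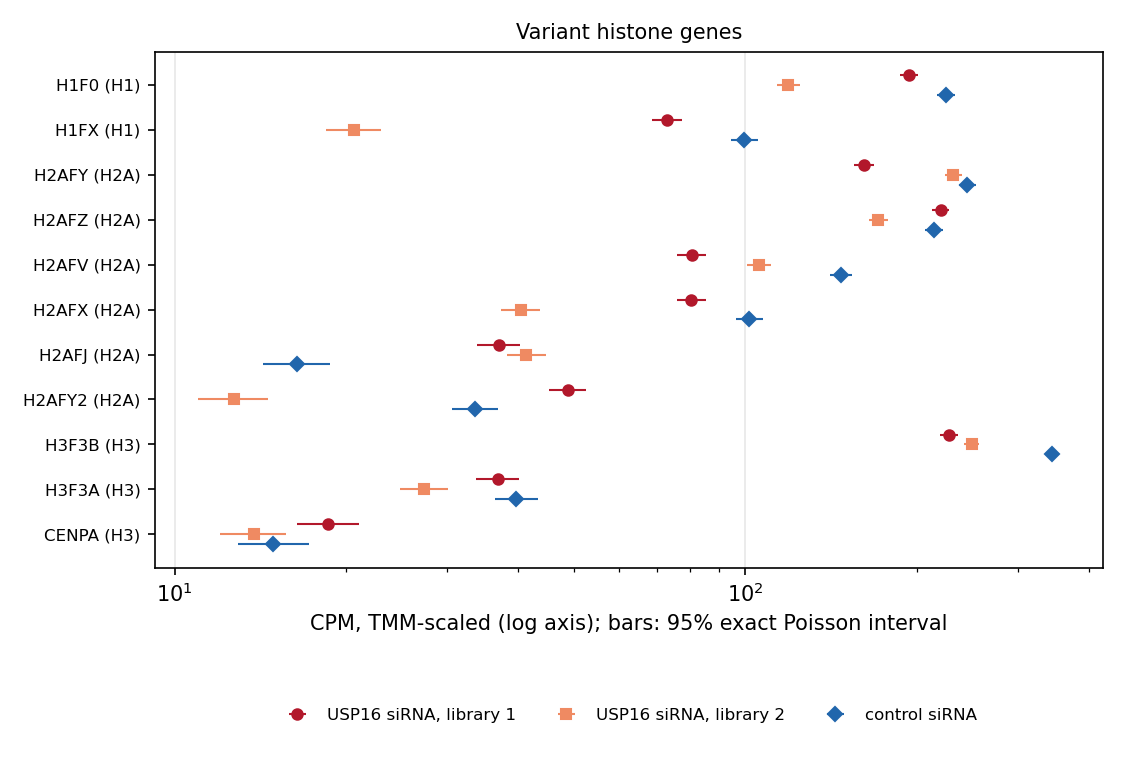
CPM (log axis) of the 11 variant genes, one point per library with exact 95% Poisson intervals. H2AFJ lies above the control in both USP16 siRNA libraries, and the points of H1FX, H2AFX and H2AFY2 for the second library lie furthest below their control points.

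The variant linker histones were H1F0, a gene known to accumulate in cells that stop dividing, and H1FX. H1FX had 1034 and 320 counts in knockdown libraries 1 and 2 against 1326 in the control, and its log2 fold changes were -0.45 and -2.27, the lowest mean among the tested members. H1F0 had 2746 and 1851 counts against 2990 (-0.21 and -0.92). For both, the second library lay further below the control. The summed level of the 2 genes was 0.823 of the control in the first library and 0.431 in the second, while the clustered H1 genes were above the control in both.

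Of the H2A variants, H2AFX encodes the form that is phosphorylated around DNA breaks, and it had 1139 and 629 counts against 1353 (-0.34 and -1.33). H2AFY2 encodes a macroH2A, a form with a large extra domain, and it had 692 and 197 counts against 448 (0.54 and -1.40), on opposite sides of the control. H2AFY, the other macroH2A gene, had 2290 and 3602 against 3258 (-0.60 and -0.08). H2AFZ and H2AFV encode the forms of H2A.Z found at promoters. H2AFZ had 3117 and 2659 counts against 2852 (0.04 and -0.33), and H2AFV had 1142 and 1642 against 1957 (-0.87 and -0.48). Of the 2 H2A.Z genes, H2AFV alone was lower in both libraries. The ratio of H2AFZ in the first library, 1.03 (0.975 to 1.08), takes in no difference. A difference between the 2 genes was not tested.

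H2AFJ was the exception among the H2A variants. It had 524 and 643 counts in knockdown libraries 1 and 2 against 218 in the control, and 37.0 and 41.3 CPM against 16.4 CPM. Its log2 fold changes were 1.17 and 1.33 (unadjusted p = 0.0171, adjusted p = 0.984 by edgeR's quasi-likelihood test with Benjamini-Hochberg adjustment), and it shares no stretch of 50 bases with another annotated gene. H2AFJ lies on the plus strand of chromosome 12, 3251 bases from HIST4H4 on the minus strand. The nearby HIST4H4 was also above the control in both libraries, on 29 counts in all.

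Of the 3 H3 variant genes, H3F3A and H3F3B were lower in both libraries and CENPA was not. H3F3B, which encodes H3.3, the form laid down outside replication, had 3224 and 3874 counts against 4595 (-0.60 and -0.47). H3F3A encodes the same protein and had 522 and 426 counts against 529 (-0.11 and -0.53). Its pseudogenes H3F3AP4 and H3F3AP6 held 2339 and 2619 counts against 2548, more than the gene itself, and how reads of the copies were assigned is not known. The sum of all 3 was 0.873 and 0.847 of the control. CENPA, the H3 form of the centromere, had 264 and 214 counts against 199 (0.31 and -0.12), with the libraries on both sides of the control. HJURP, the chaperone that loads it, was the 1 of 45 tested chaperone and exchange genes at least 2-fold lower in both libraries, with 516 and 1169 counts against 2070, a share near the 1.68% of all tested genes.

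**Figure D4:**
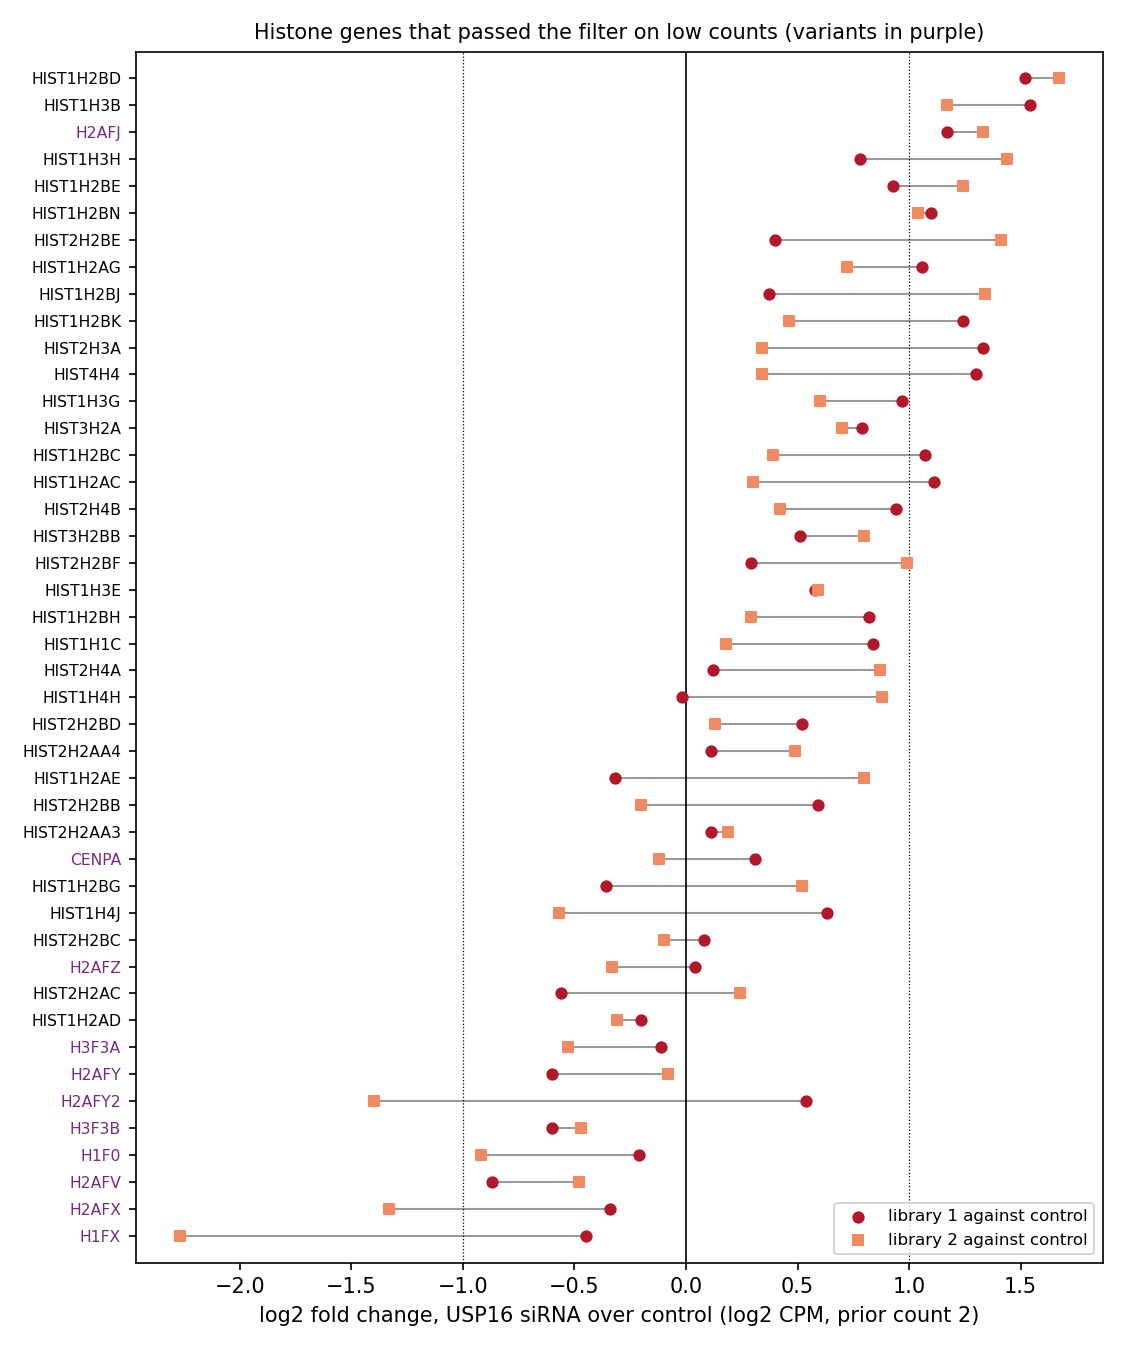
Log2 fold change against control siRNA of the 44 histone genes that entered the test, with knockdown library 1 and knockdown library 2 as separate points. Variant genes, named in purple, lie mostly to the negative side (median -0.43), and the tested clustered genes mostly to the positive side (median 0.66).

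The genes that make and handle histone mRNA showed no common direction as a list. Of 27 genes for histone mRNA processing and transcription, 0 passed edgeR's test or DESeq2 at an adjusted p of 0.05, 1 (LSM11) had an unadjusted p under 0.05 by edgeR, 10 were higher and 8 lower than the control in both knockdown libraries, and the median log2 fold changes were 0.07 and 0.06. SLBP, the protein that binds the stem-loop shown above, had 1405 and 1060 counts against 1883 (-0.51 and -1.05). LSM11, a subunit of the particle that cleaves histone pre-mRNA, had 123 and 93 counts against 218 (-0.91 and -1.43). NPAT, which activates the clustered genes in S phase, had 425 and 643 counts against 361 (0.14 and 0.61). SLBP and LSM11 lay below the control in both libraries and NPAT above it. Of 45 histone chaperone and exchange genes, 0 passed either tool, 2 had an unadjusted p under 0.05, and 11 were higher and 14 lower in both. A list of 38 S phase genes held SLBP as well. Of these 38, 0 passed either tool, and 1 had an unadjusted p under 0.05 by edgeR. In both libraries 3 were higher and 25 lower (background 33.4% and 33.5%). The medians were -0.16 and -0.23, so the S phase list and the clustered histone genes lay on opposite sides of the control. Small RNAs that lack poly(A) tails were also measured: the 76 snoRNA genes summed to 114 and 133 counts against 77. Their ratios of 1.39 (1.03 to 1.88) and 1.48 (1.11 to 1.98) lay above the control, as did those of the clustered genes. The 1181 genes annotated as misc_RNA summed to 308 and 424 against 330. Their ratios of 0.877 (0.748 to 1.03) and 1.10 (0.95 to 1.27) had intervals that take in no difference. The snRNA genes summed to 1 and 7 against 4 and the scaRNA genes to 2 and 10 against 5, too few counts to place a side. Mitochondrial genes took 7.41% and 7.33% of counts against 8.56%. The part of RNA selection in the clustered genes' values was not tested.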

How the data were processed

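Messenger RNA was sequenced from 2 USP16 siRNA libraries and 1 control siRNA library of NCI-H23 cells. The values deposited by the authors are whole-number read counts for each gene. Per the submitters' processing notes, the genome build was hg38 and the tools were StringTie 1.3.0 and HISAT2 2.0.4, with no role stated. How reads were counted, whether by strand and on which annotation, is not given in the sources used here. The header of the table for USP16 siRNA sample 2 is numbered 6 instead, and the label was followed.

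Symbols were those of the files. Positions, lengths and stem-loops came from GENCODE release 29 (GRCh38) and promoters from RefSeq (GRCh38.p14). Genes with few counts were removed with filterByExpr of edgeR 4.0.16 (R 4.3.3), counts were scaled by TMM (factors 1.02 and 1.03 for the USP16 siRNA libraries and 0.952 for the control), and 17287 genes were tested in 1 fit with edgeR's quasi-likelihood test and Benjamini-Hochberg adjustment at 0.05. This fit left 1 residual degree of freedom, all of it from the USP16 siRNA libraries, whose spread was taken to hold for the control too. The fit was tested on simulated data. Log2 fold changes per library used log2 CPM with a prior count of 2. Sums used every member without a filter, with 95% exact Poisson intervals and exact binomial intervals for ratios.

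The members and lists were chosen with earlier results of these data known. Genes named were USP16, all variant genes, the 4 clustered genes of each type with the most counts, the 4 tested members at each end of the mean log2 fold change, and listed genes past the test or at least 2-fold in 1 direction in both libraries. Other genes, such as the head-to-head partners, SLBP and NPAT, were named after their values were seen. Alternatives were DESeq2 1.42.0, other filters, scalings and prior counts, and leaving out each USP16 siRNA library.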

Additional observations from a re-analysis of the deposited data

How the results depend on the processing

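With 1 USP16 siRNA library left out, a count in both libraries becomes a count in the other alone, so it cannot fall. The tested clustered genes at least 2-fold higher in both USP16 siRNA libraries were 3, against 8 with no filter on low counts, 0 with a minimum mean of 100 counts, 1 with a prior count of 10 and 7 to 9 with either USP16 siRNA library left out. Those at least 2-fold lower in both were 0, against 1 with no filter. Their median log2 fold change was 0.66, against 0.49 with no filter, 0.74 with a minimum mean of 100, 0.75 with total counts alone, 0.47 with a prior count of 10 and 0.52 to 0.63 with 1 library left out. The variant median of -0.43 ranged between -0.48 and -0.21 with 1 library left out. The log2 ratio of the summed clustered level was 0.72, against 0.83 with total counts alone, which moved the median of all tested genes to 0.09 where it was -0.02 under TMM, and 0.66 to 0.78 with 1 library left out. Chosen after seeing the data, sums over members averaging 20 counts or more, without HIST1H2BK, without annotated pseudogenes and without members with shared stretches were between 0.68 and 0.75. Also chosen after seeing the data, 16 to 18 of the 18 clustered genes averaging 20 counts or more were higher under other scalings or with 1 library left out, and the 7 variant genes lower in both became 6 with total counts alone and 7 to 10 with 1 library left out. All genes past an adjusted p of 0.05 were 3, against 70 with no filter, 1 with a minimum mean of 100, 9 with total counts alone and 13 with DESeq2. Of 191 values for 29 named results under other filters, scalings, prior counts and DESeq2, 190 kept their direction and side of the threshold, and 1, USP16 with no filter, passed it (adjusted p = 0.0188). With 1 USP16 siRNA library left out, 4 of 58 values took the other direction: 0.54 against -0.43 for H2AFY2, 0.04 against -0.14 for H2AFZ, -0.12 against 0.10 for CENPA and -0.02 against 0.43 for HIST1H4H. Chosen after seeing the data, the log2 ratio of the summed H2B level was 0.83 without HIST1H2BK, against 0.86. Leaving out a USP16 siRNA library leaves no residual degrees of freedom, so counts past the threshold could not be given. No paired analysis was possible because the groups share 1 replicate number. With 1 control library, the depth limits most clustered genes to summed values.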
